A study of Mus musculus with 7 samples.

Results

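The genes of the NAIP and inflammasome group were compared between aged and young Tregs. The group held 9 of the 25469 genes with a count in the series, taken by symbol: Naip1, Naip2, Naip5, Naip6, Nlrc4, Nlrp3, Pycard, Casp1 and Gsdmd. It was put together with the age difference of these genes in these same libraries already known. The age contrast of the 9 genes is therefore given as a description, and no p-value is printed for any of them. Where it is said that genes among them were past a threshold, this too only describes the chosen list.

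RNA was sequenced from splenic CD4+CD25+ cells of wild-type male C57BL/6 mice, isolated with magnetic beads. Of the 7 libraries, 3 belong to the aged group (18 months) and 4 to the young group, 8 weeks old by the sample labels. The study's methods state another age for the young animals. The cDNA came from a SMART-Seq kit, which amplifies whole transcripts from little RNA. No surgery and no other treatment is named for either group. The labels call the libraries biological replicates and do not say how many mice each one pooled.

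An inflammasome is a protein platform that forms in the cytosol when a sensor meets a microbial or danger signal. NAIP proteins bind bacterial flagellin or parts of the type III secretion system and then recruit NLRC4, while NLRP3 answers to many forms of cell stress. The platform activates caspase-1, often through the adaptor ASC, and caspase-1 cleaves gasdermin D and the precursors of interleukin-1β and interleukin-18. This machinery is best known from macrophages and other myeloid cells and, for NAIP and NLRC4, from the gut epithelium.

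Each library held 10734234 to 13649310 reads on genes, and 3 reads, taken as the limit of detection, equalled 0.22 to 0.279 CPM, the read count scaled to library size. That limit covers counting error only. CD4, CD25 (Il2ra) and Foxp3 transcripts were present in every library, with Foxp3 at 447 to 622 CPM in aged and 394 to 518 CPM in young Tregs. Cd4 was lower in every aged library, at 434 to 446 against 493 to 633 CPM. Il2ra was at 327 to 481 CPM in aged and 471 to 684 CPM in young Tregs. In edgeR the log2 fold change was -0.30 for Cd4 (SE 0.119, adjusted p = 0.117) and -0.61 for Il2ra (SE 0.188, adjusted p = 0.0588). Mitochondrial transcripts made up 5.08% to 10.7% of the reads in aged and 2.63% to 3.23% in young libraries, and haemoglobin transcripts 1.24% to 13.1% over all 7 libraries.

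The NAIP copies lie side by side on the minus strand of mouse chromosome 13 (GRCm38), and their similarity bears on how reads can be assigned. Naip2 spans chr13:100144063-100202092, Naip5 chr13:100211739-100246323, Naip6 chr13:100281121-100317674 and Naip1 chr13:100407764-100452869. The coding sequences of Naip5 and Naip6 were 97% identical, and every other pair was 89.5% to 91.9% identical over 4206 to 4209 aligned bases. A stretch near the start of the coding sequence, positions 104 to 178 in all 4 transcripts, has the median number of columns in which the 4 copies differ, 8 of 75. It is not typical of each pair of copies. Capitals mark bases that differ from Naip5.
Naip1: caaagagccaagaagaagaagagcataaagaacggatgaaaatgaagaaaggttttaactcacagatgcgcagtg
Naip2: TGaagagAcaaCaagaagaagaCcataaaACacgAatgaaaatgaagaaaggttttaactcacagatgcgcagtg
Naip5: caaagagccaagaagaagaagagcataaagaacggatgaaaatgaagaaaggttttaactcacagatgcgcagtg
Naip6: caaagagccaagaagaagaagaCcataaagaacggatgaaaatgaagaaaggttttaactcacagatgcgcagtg

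In that stretch Naip1 and Naip5 were the same, Naip6 differed from Naip5 at 1 base and Naip2 at 8 bases. A read from within this stretch would match both Naip1 and Naip5. The stretch with the most differences, at coding positions 2878 to 2952 (3010 to 3084 in Naip2), is shown for contrast, again with capitals for bases that differ from Naip5.
Naip1: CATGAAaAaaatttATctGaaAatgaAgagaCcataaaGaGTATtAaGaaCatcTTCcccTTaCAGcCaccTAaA
Naip2: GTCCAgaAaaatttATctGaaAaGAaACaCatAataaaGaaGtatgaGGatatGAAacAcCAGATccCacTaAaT
Naip5: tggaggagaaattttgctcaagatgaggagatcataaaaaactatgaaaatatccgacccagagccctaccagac
Naip6: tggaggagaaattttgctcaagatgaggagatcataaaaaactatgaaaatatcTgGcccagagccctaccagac

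There Naip1 and Naip2 each differed from Naip5 at 33 of 75 bases, whereas Naip6 differed at 2. Over all annotated exons, 16.2% of the 100-base words of Naip5 also occurred in another gene, against 6.26% for Naip6, 4.44% for Naip2 and 13% for Naip1. Words shared by Naip5 and Naip6 made up 6.44% of those of Naip5. With words of 50 bases the shared part was 36.9% for Naip5, 21.5% for Naip6, 19.1% for Naip2 and 31.5% for Naip1. The read length is not given in the sources used here, so the counts of single copies are uncertain to this extent, and the copies were also summed.

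The stretches directly upstream of the RefSeq gene starts are shown because 3 of the 4 copies carry a common word there, CCTTTAAGAGG, in capitals. It is the longest word that the windows of Naip1, Naip2 and Naip5 share, and it was searched for after these sequences had been read. The windows, from RefSeq on GRCm38.p6, are chr13:100202123-100202242 for Naip2, chr13:100247337-100247456 for Naip5, chr13:100316617-100316736 for Naip6 and chr13:100452865-100452984 for Naip1. They are written 5′ to 3′ on the minus strand.
Naip2: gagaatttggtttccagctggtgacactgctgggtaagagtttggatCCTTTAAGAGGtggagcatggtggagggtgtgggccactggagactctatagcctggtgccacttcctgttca
Naip5: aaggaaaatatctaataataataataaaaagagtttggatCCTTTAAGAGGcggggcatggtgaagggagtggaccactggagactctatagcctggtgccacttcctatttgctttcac
Naip6: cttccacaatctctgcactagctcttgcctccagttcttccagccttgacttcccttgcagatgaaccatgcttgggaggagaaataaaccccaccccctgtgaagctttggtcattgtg
Naip1: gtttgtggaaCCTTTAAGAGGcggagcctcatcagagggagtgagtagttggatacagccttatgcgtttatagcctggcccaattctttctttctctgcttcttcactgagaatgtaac

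On either strand, CCTTTAAGAGG occurred in 30 of 32851 RefSeq promoters of 300 bases (0.0913%), and it began 73 bases before the start of Naip2, 80 before that of Naip5 and 110 before that of Naip1. No copy of the word was found in the window of Naip6. The windows are not at like places in the GENCODE genes given above, since that of Naip6 lies inside its gene and that of Naip5 lies well upstream. Promoters were found for 8 of the 9 genes, 9 in all, with a pair for Nlrp3. Words of interferon-response elements, GGAA or GAAA followed by any 2 bases and then GAAA, were found in 2.72% and 3.44% of all promoters and in none of these 9. TATAAA was found in the promoters of Naip1 and Naip5 and in 13.6% of all promoters, and GAGGAAGT, an Ets-type word, in that of Pycard and in 3.2% of all promoters.

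Among the sensors, Naip5, Naip6 and Naip2 were higher in aged Tregs, and Nlrc4 and Nlrp3 had overlapping ranges in both ages. Naip5, a receptor for flagellin, stood at 98.8, 128 and 114 CPM in the aged libraries and at 23.2, 24.5, 20.8 and 15.9 CPM in the young ones. Its lowest aged value lay far above its highest young value. The means were 113.8 ± 14.8 (SD, n = 3) and 21.1 ± 3.78 CPM (SD, n = 4), a difference of 2.43 on the log2 scale (SE 0.159), or 5.39-fold.

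Naip6, also a flagellin receptor, was measured at 72.9, 68.8 and 69.4 CPM in aged and at 20.3, 16.0, 17.4 and 13.5 CPM in young Tregs. The aged libraries were close to each other and stood apart from all young libraries. Its means were 70.4 ± 2.19 (SD, n = 3) and 16.8 ± 2.84 CPM (SD, n = 4), with a log2 fold change of 2.07 (SE 0.136).

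Naip2, which recognises the inner rod of the type III secretion system, gave 38.6, 36.6 and 31.4 CPM in aged against 20.2, 22.1, 22.4 and 14.4 CPM in young Tregs. The groups did not overlap, but the gap was narrow, from 22.4 to 31.4 CPM. The log2 fold change was 0.84 (SE 0.168), which corresponds to 1.80-fold.

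Naip1, a receptor for the needle protein of the same secretion system, was close to the limit of detection at both ages. It had 2, 4 and 9 reads in aged and 8, 4, 5 and 7 reads in young libraries, with means of 0.473 ± 0.339 and 0.469 ± 0.178 CPM. It was below the filter on low counts. In the 2 fits without that filter, by edgeR and by DESeq2, its log2 fold change was between -0.0082 and -0.0027, and no age difference was detectable at this depth.

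When the 4 copies were summed, the NAIP reads came to 2409, 2326 and 2307 in aged libraries and to 736, 898, 773 and 618 in young libraries. On the CPM scale the sums were 210, 234 and 216 in aged and 64.3, 62.9, 61.0 and 44.3 in young Tregs. The lowest sum, in young replicate 4, was shared by its Naip2, Naip5 and Naip6 values. The summed level was 3.79-fold higher in aged Tregs (log2 fold change 1.92, SE 0.138), and leaving out any 1 library moved the log2 value between 1.81 and 1.98.

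**Figure D1:**
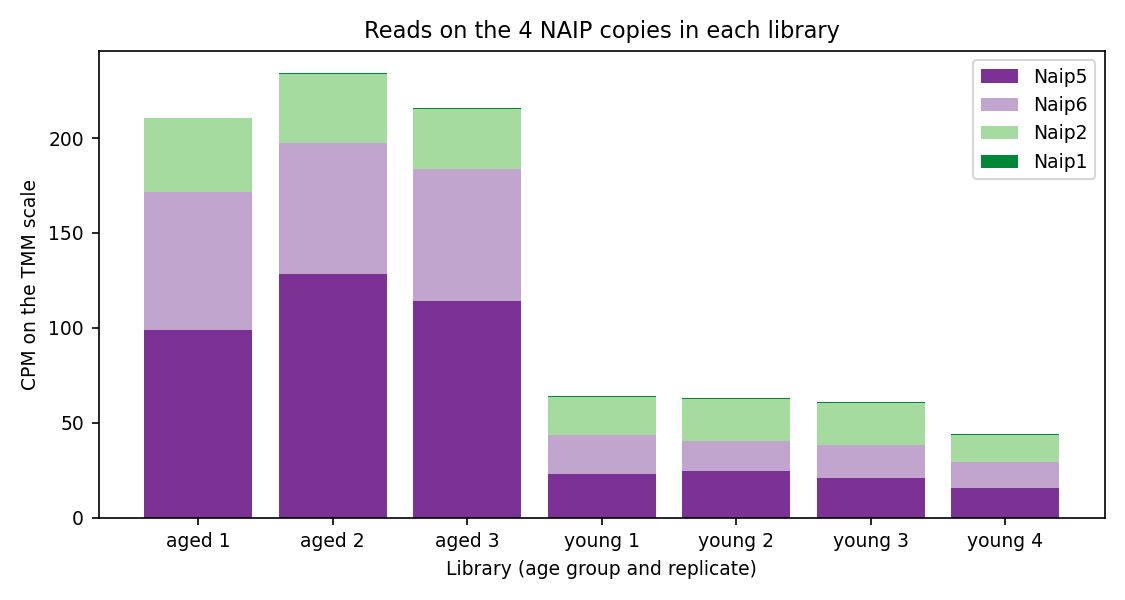
Stacked bars show CPM on the TMM scale for Naip5, Naip6, Naip2 and Naip1 in each of the 7 libraries, so that bar height is the NAIP sum. The aged bars reach 210 to 234 CPM and the young bars 44.3 to 64.3 CPM, and Naip1 is barely visible.

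The copies did not contribute equally at the 2 ages. Naip5 took 51.6% ± 4.12 (SD, n = 3) of the NAIP reads in aged and 36.3% ± 2.00 (SD, n = 4) in young Tregs. The share of Naip2 was 16.2% ± 1.95 in aged and 34.0% ± 2.45 in young Tregs. Neither share overlapped between the ages, at 46.9% to 54.9% against 34.2% to 39.0% for Naip5 and 14.6% to 18.4% against 31.4% to 36.7% for Naip2. The Naip6 share overlapped, at 32.1% ± 2.63 and 28.9% ± 2.69.

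Read as ratios within a library, which no scaling between libraries can alter, Naip5 to Naip2 was 3.24 ± 0.588 in aged and 1.07 ± 0.0971 in young Tregs. The ratio of Naip6 to Naip2 was 1.99 ± 0.187 and 0.859 ± 0.133. Both ratios were higher in every aged library than in any young library. The ratio of Naip5 to Naip6, the most similar copies, was 1.62 ± 0.257 and 1.27 ± 0.182, with overlapping values.

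Nlrc4, the partner that NAIP proteins recruit, lies at chr17:74425438-74459142. It was measured at 10.2, 10.5 and 11.8 CPM in aged and at 8.21, 7.85, 7.34 and 11.3 CPM in young Tregs. Young replicate 4 lay within the aged range, and the other young libraries lay below it. The log2 fold change was 0.32 (SE 0.183). The gene that acts directly downstream of the NAIP receptors thus differed by less than each of Naip2, Naip5 and Naip6 in these fits, although these differences between genes were not tested.

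Nlrp3 (chr11:59541568-59566956) was low throughout. It gave 2.18, 1.01 and 2.15 CPM in aged and 2.18, 1.26, 2.69 and 2.22 CPM in young Tregs, from 10 to 34 reads per library. The values of both ages were interleaved. Its log2 fold change was -0.22 (SE 0.367), and without aged replicate 2, the lowest library, it was 0.058.

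Pycard encodes the adaptor ASC and lies at chr7:127989708-127993867. Its levels were 29.3, 29.1 and 38.6 CPM in aged and 34.0, 36.8, 32.1 and 34.6 CPM in young Tregs. The aged libraries lay on both sides of the young range. The log2 fold change was -0.09 (SE 0.126). Other annotated genes overlap 12.8% of its exon length, and the counting took no account of strand.

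Casp1 encodes the protease of the inflammasome and lies at chr9:5298517-5307265. It was at 77.6, 96.9 and 108 CPM in aged and at 16.2, 22.9, 19.6 and 23.5 CPM in young Tregs. Every aged library exceeded every young library. The means of 94.2 ± 15.5 (SD, n = 3) and 20.5 ± 3.39 CPM (SD, n = 4) differed 4.58-fold, with a log2 fold change of 2.20 (SE 0.160).

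Gsdmd, at chr15:75862327-75867408, encodes the pore-forming substrate of caspase-1. It gave 88.3, 99.3 and 103 CPM in aged and 63.9, 75.5, 65.7 and 65.2 CPM in young Tregs. The groups did not overlap, and young replicate 2 was the highest young library. With a log2 fold change of 0.52 (SE 0.098), or 1.44-fold, Gsdmd had the smallest difference among the 5 genes whose ages were separate.

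**Figure D2:**
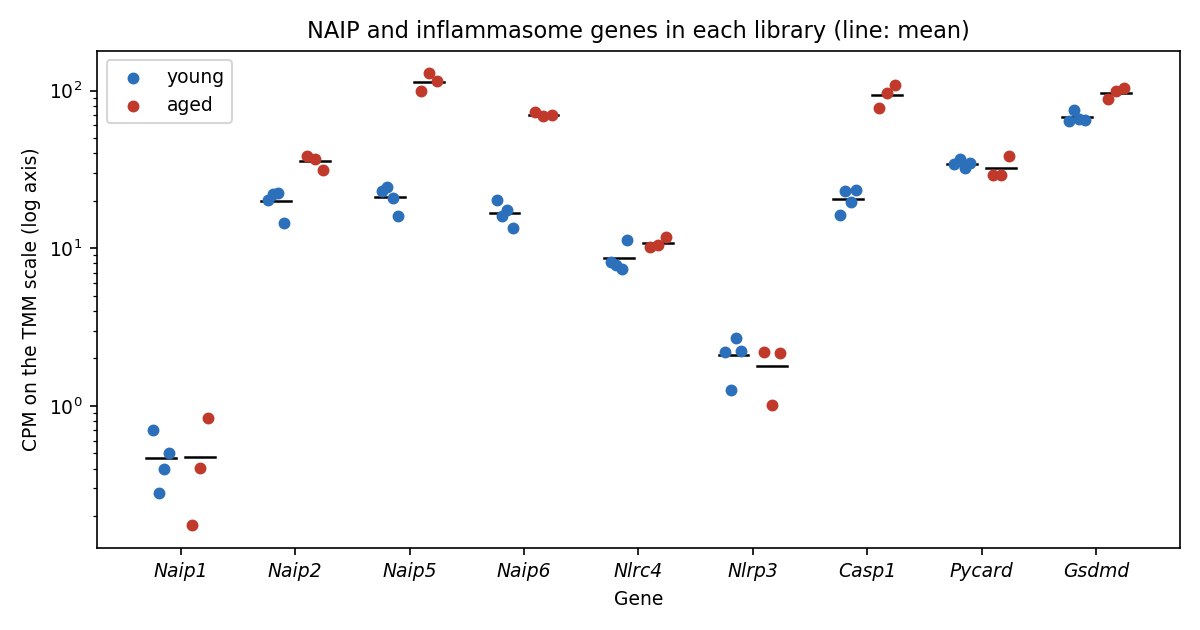
Each point is the CPM on the TMM scale of 1 gene in 1 library, on a log axis, with aged and young libraries side by side and a line at each mean. Naip2, Naip5, Naip6, Casp1 and Gsdmd are separated by age, and Naip1, Nlrc4, Nlrp3 and Pycard overlap.

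The filter on low counts left 8 of the 9 genes in the edgeR fit. Of these, 5 were past an adjusted p of 0.05 over all 13904 genes, all higher in aged Tregs, and the same 5 were past it in each of the 7 fits that left out 1 library. Across all genes tested 16.7% were past the threshold, 9.8% with the higher level in aged and 6.94% with the lower. The same 5 genes had aged values all above the young values, as had 15.5% of the genes tested, and 29.9% of the genes tested had groups that did not overlap in either direction. These counts describe a list chosen on this contrast. The median log2 fold change was 0.68 over the 8 genes and 0.02 over all genes tested. Ranked by log2 fold change, 1.07% of the genes tested lay above Naip5, 1.51% above Casp1 and 1.77% above Naip6. Naip2 was exceeded by 9.84%, Gsdmd by 17% and Nlrc4 by 25.5% of the genes. Pycard was exceeded by 61.2% and Nlrp3 by 74%.

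To compare levels between genes, CPM was divided by the annotated exon length in kilobases. That length merges the exons of all annotated transcripts of a gene, so it can exceed the transcripts present and lower the value. For Pycard it was 3800 bases, nearly the whole annotated gene, so its place in the order is uncertain. In young Tregs Gsdmd led with 28.4 ± 2.24 CPM per kb, followed by Casp1 with 13.7 ± 2.26 and Pycard with 9.05 ± 0.504. Naip2 and Naip5 were level at 4.08 ± 0.769 and 4.06 ± 0.727, and their ranges overlapped. Naip6 at 2.46 ± 0.416 overlapped Nlrc4 at 1.80 ± 0.367, with Nlrp3 at 0.515 ± 0.147 and Naip1 at 0.0847 ± 0.0322 CPM per kb below them.

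The order differed in aged Tregs. Casp1 was first with 63.0 ± 10.4 CPM per kb, above Gsdmd with 40.8 ± 3.29 and Naip5 with 21.9 ± 2.85, and these 3 ranges were separate. Naip6 at 10.3 ± 0.321 overlapped Pycard at 8.50 ± 1.42, which overlapped Naip2 at 7.33 ± 0.762. Nlrc4 at 2.25 ± 0.175, Nlrp3 at 0.439 ± 0.165 and Naip1 at 0.0855 ± 0.0613 CPM per kb came last at both ages.

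Ratios of CPM values within a library also differed between the ages. Casp1 to Gsdmd was 0.967 ± 0.0842 in aged and 0.304 ± 0.0442 in young Tregs. Casp1 to Pycard was 2.93 ± 0.355 and 0.597 ± 0.0862. Neither ratio overlapped between the ages.

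The inflammasome pathway beyond these 9 genes was followed with 4 lists of 70 genes. Of these, 66 had counts and 58 were tested. In edgeR 18 passed an adjusted p of 0.05, and 14 of them rose and 4 fell with age, where 9.8% of all genes tested rose and 6.94% fell. The median log2 fold change of the 58 genes was 0.11, against 0.02 over all genes tested. These lists were also made with earlier results of the data known.

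Of the other sensors and receptors, 17 of 22 were tested, 5 rose and 1 fell, with a median log2 fold change of 0.34. Nlrp1b, a sensor of bacterial proteases, rose from 4.06 ± 0.548 to 13.9 ± 1.65 CPM (log2 fold change 1.77, SE 0.171, adjusted p = 0.000863). Aim2, a sensor of cytosolic DNA, rose from 52.9 ± 2.22 to 87.6 ± 7.32 CPM (log2 fold change 0.73, SE 0.0882, adjusted p = 0.00178). Nlrc5, an activator of MHC class I genes, rose from 327 ± 27.5 to 569 ± 117 CPM (adjusted p = 0.0103). The lipopolysaccharide co-receptor gene Cd14 had 3.79 ± 0.672 CPM in young and 8.42 ± 2.02 CPM in aged Tregs (adjusted p = 0.0132).

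Nlrp12 was low but rose, from 0.631 ± 0.412 to 2.57 ± 0.404 CPM (adjusted p = 0.0191). Nod1, a receptor for bacterial peptidoglycan, fell from 80.6 ± 4.89 to 62.7 ± 4.80 CPM (adjusted p = 0.0321). Tlr5, a flagellin receptor of the cell surface named here after its values were seen, was below the filter, with 3, 2 and 2 reads in aged and 13, 10, 12 and 10 reads in young libraries. It was past the threshold in 2 of the 5 alternatives that tested it, lower in aged Tregs (adjusted p = 0.0308 to 0.0721). Nlrp1a, the neighbour of Nlrp1b, did not pass (log2 fold change 0.54, SE 0.639, adjusted p = 0.601). Naip3, annotated between Naip6 and Naip1, had 11, 9 and 3 reads in aged and 0, 1, 3 and 1 in young libraries, below the filter. Without the filter it was just past the threshold by edgeR and by DESeq2 (adjusted p = 0.0498 to 0.0499), from reads that in the young libraries did not exceed the limit of detection. Naip7 is not listed in the series table.

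Among caspases and genes of membrane rupture, 7 of 11 were tested and 2 rose. Casp4, whose mouse product binds lipopolysaccharide in the cytosol, lies beside Casp1 at chr9:5308828-5336783. It was at 91.7, 68.1 and 103 CPM in aged and at 14.2, 21.9, 15.0 and 20.7 CPM in young Tregs. Every aged library exceeded every young library, as for Casp1. The log2 fold change was 2.28 (SE 0.197, adjusted p = 0.000555). The ratio of Casp1 to Casp4 was 1.11 ± 0.293 in aged and 1.16 ± 0.107 in young Tregs, with overlapping values.

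The other gene of that list to rise was Dfna5, which encodes gasdermin E, from 5.12 ± 1.09 to 9.94 ± 1.55 CPM (adjusted p = 0.018). Casp8, an initiator of apoptosis, had a log2 fold change of -0.22 (SE 0.101, adjusted p = 0.172). Ninj1, which ruptures the membrane of dying cells, had one of 0.25 (SE 0.256, adjusted p = 0.548).

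Of the cytokine substrates and their antagonists, 5 of 7 were tested and 2 rose. Il1b, the precursor of interleukin-1β, was measured at 68.8, 63.4 and 115 CPM in aged and at 12.4, 4.90, 7.19 and 10.7 CPM in young Tregs. All aged libraries were far above the young ones, with aged replicate 3 the highest. The log2 fold change was 3.23 (SE 0.329, adjusted p = 0.0011). Il1rn, the receptor antagonist, rose from 2.04 ± 0.808 to 6.72 ± 3.29 CPM (adjusted p = 0.0237). Il18, the other caspase-1 substrate, was at 6.42 ± 3.05 CPM in aged and 6.43 ± 0.587 CPM in young Tregs (adjusted p = 0.993).

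Of the regulators and triggers, 29 of 30 were tested, 5 rose and 3 fell, and the median log2 fold change was -0.12. Over all genes tested, 9.8% rose and 6.94% fell. The interferon-regulated genes Irf1 and Gbp2 rose, by 0.79 (SE 0.130, adjusted p = 0.00624) and 0.87 (SE 0.165, adjusted p = 0.0107) on the log2 scale. Serpinb9, a serine protease inhibitor, rose by 0.93 (SE 0.143, adjusted p = 0.00466). The potassium channel gene Kcnk6 (adjusted p = 0.0236) and the pyrin-binding Pstpip1 (adjusted p = 0.0447) also rose.

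Txnip, a thioredoxin-binding protein known as an NLRP3 partner, had the largest fall of the 4 pathway genes that fell in the filtered edgeR fit. It had 396, 456 and 408 CPM in aged and 1060, 1210, 944 and 916 CPM in young Tregs (log2 fold change -1.30, SE 0.141, adjusted p = 0.00126). Prkcd, a kinase that phosphorylates NLRC4, fell by 0.48 (SE 0.0899, adjusted p = 0.0104) on the log2 scale. The survival gene Bcl2 fell by 0.56 (SE 0.117, adjusted p = 0.015). Nek7, the NLRP3-binding kinase, had a log2 fold change of -0.08 (SE 0.114, adjusted p = 0.684). Irf8, a transcription factor known to control NAIP genes, had one of -0.15 (SE 0.180, adjusted p = 0.616).

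**Figure D3:**
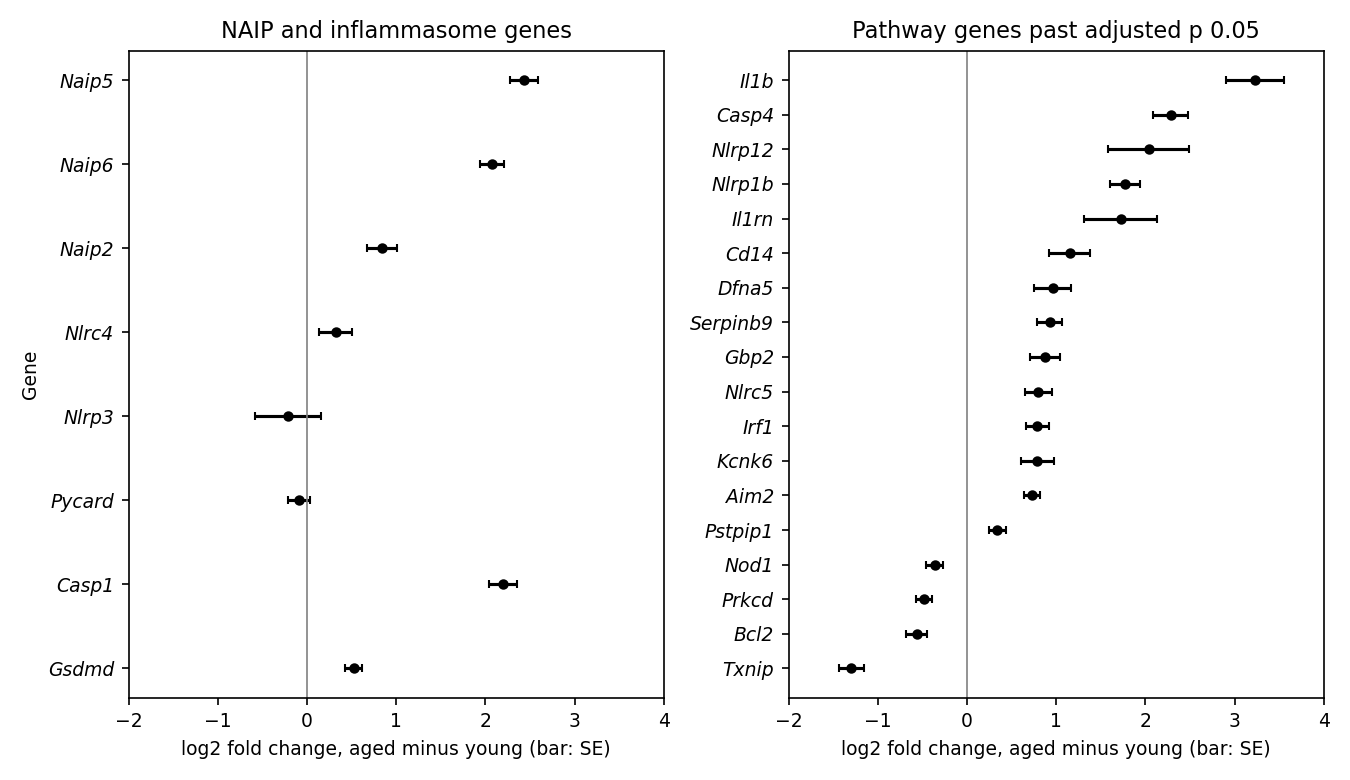
Log2 fold changes (aged minus young, edgeR) with SE bars are shown for the 8 inflammasome genes tested on the left and for the 18 pathway genes past an adjusted p of 0.05 on the right. Naip5, Casp1 and Naip6 lie between 2.07 and 2.43, near Casp4 at 2.28, and Nlrp3 and Pycard lie below 0.

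Some of these 18 calls were lost when 1 library was left out, which also leaves the fit fewer libraries. Over all genes, such fits gave 1237 to 3058 calls, against 2327 with all 7 libraries. Bcl2 was not called without aged replicate 3 (adjusted p = 0.05896). Dfna5 was lost without young replicate 3 (0.05272) or 4 (0.05359), and Nlrp12 without aged replicate 3 (0.06127) or young replicate 4 (0.05467). Il1rn lost its call without aged replicate 3 (0.08748), young replicate 3 (0.05272) or 4 (0.06279). Kcnk6 was not called without aged replicate 2 (0.06418), young replicate 1 (0.05884) or 4 (0.06733). Nod1 was lost without aged replicate 3 (0.10359) or young replicate 1, 2, 3 or 4 (0.05855 to 0.08009), and Pstpip1 without aged replicate 2 or 3 or young replicate 1, 3 or 4 (0.09443 to 0.12287). The other 11 pathway genes were called in all 7 fits.

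The genes around the NAIP cluster were examined to see whether the age difference extended along the chromosome. From low to high coordinates, Mccc2, Bdp1, Serf1 and Smn1 lie on one side of the NAIP copies and Gtf2h2 on the other. None of these 5 was past an adjusted p of 0.05 in edgeR or limma voom, and 1 had an unadjusted p under 0.05 in edgeR. Over all 13904 genes tested in edgeR, 16.7% were past the adjusted threshold and 4540 genes had an unadjusted p under 0.05. With only 5 genes, these counts cannot be told apart from those shares. Smn1, the gene next to Naip2, had 22.02 ± 2.09 CPM in aged and 22.6 ± 2.50 CPM in young Tregs (log2 fold change -0.04, SE 0.130, adjusted p = 0.871). Gtf2h2, next to Naip1, had 25.5 ± 1.05 and 24.5 ± 2.76 CPM (log2 fold change 0.05, SE 0.121, adjusted p = 0.80).

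Farther out, Bdp1 was at 71.6, 44.2 and 45.9 CPM in aged and at 84.8, 76.8, 80.9 and 69.0 CPM in young Tregs. Aged replicate 1 lay within the young range and the other aged libraries below it. The log2 fold change was -0.53 (SE 0.174, adjusted p = 0.0715). Bdp1 was called without aged replicate 1 and by DESeq2, which called 1 of the 5 genes. Mccc2 (0.12, SE 0.184, adjusted p = 0.689) and Serf1 (-0.54, SE 0.502, adjusted p = 0.503) did not pass. Ocln, beyond Gtf2h2, was below the filter and did not pass in the fits without it (adjusted p = 0.813 to 0.865), and Cartpt, beyond Mccc2, had no counts.

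The genes whose profile over the 7 libraries was nearest to that of the NAIP sum were Itgae, Gm2974, Bicd1, Tmem136 and Vsig10. Likeness was the root mean square difference of log2 CPM, with each gene centred on its mean, and it ran from 0.142 to 0.176 for these genes against a median of 1.003 over the genes tested. Itgae encodes the CD103 chain of an integrin that binds E-cadherin. It was at 174, 165 and 202 CPM in aged and at 56.5, 57.7, 46.8 and 33.5 CPM in young Tregs. As for the NAIP sum, young replicate 4 was its lowest library. Bicd1 was at 16.8 ± 1.51 and 4.98 ± 0.540 CPM and Vsig10 at 19.2 ± 3.68 and 4.86 ± 0.617 CPM in aged and young Tregs. In all 5 genes every aged library was above every young library, as in 15.5% of the genes tested. Both this and the low young replicate 4 of Itgae follow from picking genes near the NAIP sum.

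Markers of other cells were examined because inflammasome genes are strong in myeloid cells. In bulk RNA, fewer cells of a type cannot be told apart from less RNA per cell. Summed neutrophil markers were 5431, 1969 and 740 CPM in the aged libraries and 320 to 1019 CPM in the young ones, and 5 of the 12 genes rose (Retnlg, Cxcr2, Csf3r, S100a8 and S100a9). At an unadjusted p under 0.05 there were 10 of the 12, against 4540 of the 13904 genes tested. The median log2 fold change of the list was 1.96, near those of Casp1 and Naip6. In aged replicate 3 the neutrophil sum lay inside the young range, and Naip5 was at 114 CPM and Casp1 at 108 CPM. That sum is made up mostly of a few abundant genes, and single markers differed from it. Csf3r was at 68.1, 49.8 and 53.1 CPM in aged and at 22.7, 8.90, 17.1 and 17.5 CPM in young libraries. Like Naip5 and Casp1, it was higher in every aged library than in any young one, and so were Cxcr2, Retnlg and S100a9. In aged replicate 3 Cxcr2 was at 11.6 CPM against at most 6.12 CPM in young libraries, and Retnlg at 17.4 against at most 12.7 CPM. In aged replicate 1, with the highest neutrophil sum, Naip5 (98.8 CPM), Casp1 (77.6 CPM) and Gsdmd (88.3 CPM) had their lowest aged values. Naip6 (72.9 CPM) and Naip2 (38.6 CPM) had their highest aged values there. Without that library the log2 fold change was 2.52 for Naip5, 2.31 for Casp1 and 0.58 for Gsdmd, each larger than with it. It was 2.04 for Naip6 and 0.78 for Naip2, each smaller than with it. In that fit 5 of the 8 genes were again past the threshold.

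Summed monocyte and macrophage markers overlapped, at 398 to 645 CPM in aged and 471 to 586 CPM in young Tregs. Of these 13 genes Cd14 rose, and Csf1r and Adgre1 fell. Dendritic cell markers summed to 41.9 to 63.4 and 60.1 to 79.4 CPM, with Zbtb46 higher and Cd209a, Clec9a and Siglech lower. Cd209a was at 0 in 1 or more libraries. B cell markers (706 to 1418 and 1158 to 1752 CPM), plasma cell markers (556 to 1133 and 224 to 1828 CPM) and erythroid markers had no called gene in edgeR, and their ranges overlapped. At an unadjusted p under 0.05 there were 2 of the 5 B cell markers and none of the other 2 lists, against 4540 of the 13904 genes tested. DESeq2 called 2 B cell markers and limma voom 1, against 3804 and 2283 of the genes tested.

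The Treg list summed to 1959 to 2593 CPM in aged and 1458 to 2437 CPM in young libraries. It had no called gene among 5 in edgeR and 4 at an unadjusted p under 0.05, while DESeq2 called 3 and limma voom 1. Over all 13904 genes tested, 4540 had such an unadjusted p in edgeR, and DESeq2 called 3804 and limma voom 2283. The general T cell markers (1297 to 1526 and 1265 to 1627 CPM) included 1 gene that rose, Cd3e. Markers of CD8 T cells (45.4 to 82.0 and 48.8 to 92.7 CPM) had no called gene by any of these tools and none at an unadjusted p under 0.05. NK cell markers were lower in every aged library (15.4 to 24.6 against 25.8 to 35.9 CPM, Klrb1c called), and platelet markers were higher (18.8 to 39.4 against 8.13 to 16.8 CPM, Ppbp called). Markers of eosinophils, basophils and mast cells were sparse, with Mcpt8 and Fcer1a at 0 in 1 or more libraries and Cpa3 lower. Of the 16 marker genes called, Cxcr2, Csf3r, Cd14, Csf1r, Adgre1, Cd209a and Siglech kept the call whichever library was left out. The other 9 lost the call in 1 or more of these fits. S100a8 lost it without aged replicate 1 or 2 or young replicate 1, 2 or 4 (adjusted p = 0.07090 to 0.13217). S100a9 lost it without aged replicate 1 or young replicate 1 or 4 (adjusted p = 0.06204 to 0.07961). The part of these cells in the levels of NAIP and inflammasome genes was not tested.

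**Figure D4:**
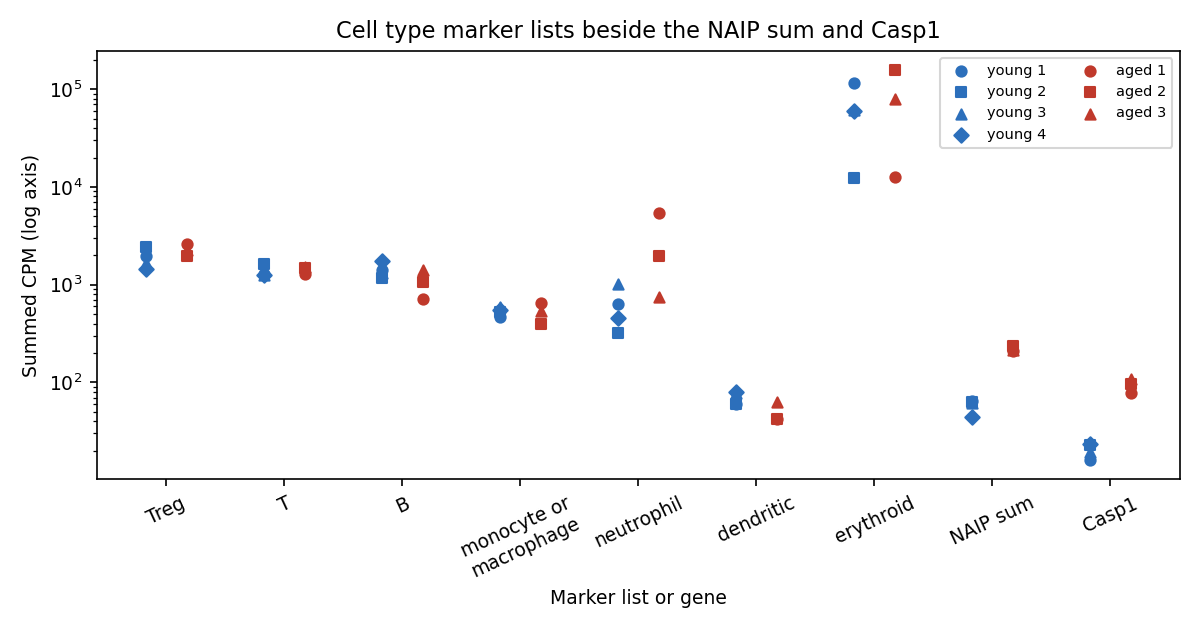
Summed CPM of 7 marker lists, the NAIP sum and Casp1 is plotted for each library on a log axis, with colour for age and symbol for replicate. The neutrophil sum spreads from 740 to 5431 CPM over the aged libraries and the NAIP sum from 210 to 234 CPM. The single neutrophil marker Csf3r, not plotted, was at 49.8 to 68.1 CPM in aged and 8.90 to 22.7 CPM in young libraries.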

How the data were processed

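RNA-sequencing libraries of splenic CD4+CD25+ cells, 3 aged and 4 young, were analysed. The authors deposited raw read counts per Ensembl gene for each library, in the layout of HTSeq-count without strand. Reads that the count files list as not assigned to 1 gene, for whatever reason (13.1% to 20.9%), were left out. The authors also deposited a series table whose signal values were checked to equal the counts divided by 1 size factor per library. Its log2 fold changes, test score and p-values are the authors' own comparison, deposited under the column names of DESeq2, and were not used. The genome build is mm10 by the submitters' notes, and the aligner and annotation release are not given in the sources used here. Gene symbols came from the series table and coordinates from GENCODE M21 on GRCm38 by Ensembl identifier (25326 of 25469 matched). Reads that align to several NAIP copies may have been dropped or split before deposit.

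The age contrast was fitted in edgeR 4.0.16 (R 4.3.3) with TMM factors, the default filterByExpr and the quasi-likelihood test, without covariates. The p-values were adjusted after Benjamini-Hochberg over 13904 genes, with a threshold of 0.05. Standard errors are the absolute log2 fold change divided by the square root of the F statistic. CPM is on the TMM scale, with mean ± SD. Alternatives were DESeq2 1.42.0, limma 3.58.1 voom, RLE, library size only, no filter, a minimum of 10 counts per library, removal of haemoglobin, immunoglobulin and mitochondrial genes, thinning, the NAIP copies in 1 row, a replicate block and each library left out. DESeq2 on all genes with a count was added after seeing the data. Coding sequences were aligned with MAFFT 7.526. The edgeR step was tested on simulated data. The p-values weigh the age difference against the spread between these libraries, and the number of mice in each library is not given. Replicates of 1 age differed by more than sampling noise.

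The members and lists were chosen with earlier results of these data known. Named genes are the 9 genes, the NAIP neighbours, each pathway gene past the threshold and a set of fixed pathway genes, the 5 nearest profiles (log2 CPM, prior count 2), and marker genes beside a result.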

Additional observations from a re-analysis of the deposited data

Results flagged for a closer look

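In the young group of 4, 59 values were tested for a library far from the rest, and 5 stood out. The aged group of 3 is too small for this test and was not tested. Such gaps arise by chance in about 5% of groups. The NAIP sum of young replicate 4 was 44.295 CPM, against 61.047 to 64.322 CPM in the other young libraries. Gsdmd in young replicate 2 was 75.466 CPM, against 63.885 to 65.707 CPM. Gbp2 in the same library was 118.35 CPM, against 85.608 to 90.015 CPM. That library also had summed T cell markers of 1626.6 CPM, against 1264.9 to 1299.2 CPM, and summed plasma cell markers of 1827.6 CPM, against 224.25 to 402.06 CPM. Without young replicate 4 or young replicate 2, 5 of the 8 inflammasome genes were again past the threshold.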

How the results depend on the processing

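The number of inflammasome genes past the threshold was 5 under 16 of 18 alternatives. It was 3 of 6 rows with the NAIP copies summed into 1 row, because 3 called copies become 1. Naip5, Naip6, Casp1 and the NAIP sum kept their direction and their call under all 17 alternatives of each, with log2 fold changes of 2.31 to 2.52, 1.98 to 2.18, 2.09 to 2.31 and 1.81 to 1.98. With 1 library left out, Nlrp3 ran from -0.40 to 0.058 and reversed without aged replicate 2, and the cause was not tested. Over all genes, calls numbered 3804 by DESeq2, whose dispersion trend had to be replaced by a local one, 2884 by DESeq2 on all genes, and 1237 to 3058 with 1 library left out. The count of called pathway genes ran from 12 to 24 with 1 library left out and was 27 by DESeq2. Calls among the NAIP neighbours were 1 by DESeq2, 1 by DESeq2 on all genes and 0 to 1 with 1 library left out. Same-numbered libraries did not deviate together (correlations -0.091, -0.292 and -0.138). Differently numbered aged and young libraries had correlations of -0.241 to 0.227. With so few libraries these values cannot settle whether the replicate numbers pair the libraries. With the replicate number as a block, calls were 292 over all genes, 4 in the pathway lists and 3 among the inflammasome genes, where Naip2 (0.72) and Gsdmd (0.51) were not past the threshold. Depth limits Naip1, at 2 to 9 reads a library, and Nlrp3, at 10 to 34.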
